A study of Mus musculus with 15 samples.

Results

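The genes described here were 10 chaperone and endoplasmic reticulum (ER) stress genes, chosen by name out of 53546 gene symbols in the count table. Of these, 6 encode cytosolic heat shock proteins (Hspa1a, Hspa1b, Hspa8, Hsp90aa1, Hsph1 and Dnajb1) and 4 act in or for the ER (Hspa5, Hsp90b1, Herpud1 and Ddit3). Each of the 10 passed the filter on low counts, as did 14683 genes in all. The libraries came from macrophages of the dura mater, the outermost membrane around the brain, sorted for CD206, the mannose receptor. The mice were C57BL/6J at all ages and carried the genotype Cx3cr1GFP/wt, in which GFP replaces 1 allele of the chemokine receptor gene Cx3cr1, so no group without that allele was included. They were untreated, and 5 ages were sampled with 3 libraries each: an embryonic age, E14.5, and the postnatal days P3, P10, P21 and P56. According to the labels, E14.5, P3, P10 and P21 belonged to sequencing project S232 and P56 to project S276, so that age and project cannot be told apart at P56. The labels do not tie a library to a single animal, and p-values measure the spread between libraries, which may be in part technical. The question addressed was how the transcripts of dural macrophages differ between ages.

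Cytosolic heat shock genes are switched on by the transcription factor HSF1 when unfolded proteins accumulate in the cytosol, and their products hold, refold or hand over those proteins. The ER has its own response, in which the sensors ATF6, IRE1 and PERK report unfolded protein in the ER lumen and raise ER chaperones, degradation factors and, through ATF4, the stress factor CHOP encoded by Ddit3. In several cell types Hspa1a, Hspa1b and Dnajb1 are also known to respond to warm enzymatic dissociation of tissue, together with immediate early genes such as Fos and Jun.

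Textbook elements of both responses were searched for close to the start of these genes. The promoter sequences below, taken from RefSeq on GRCm38.p6, show members that carry them. Each window of 300 bases runs from 250 bases before to 50 bases after the start, 5′ to 3′ on the strand of the gene. Windows were found for 8 of the 10 genes; Hspa8 and Hsp90aa1 have none here. Capitals mark matches to the 2-unit heat shock element (GAANNTTC or TTCNNGAA) in these windows of cytosolic genes.
Hspa1a, chr17:34972107-34972406, minus strand: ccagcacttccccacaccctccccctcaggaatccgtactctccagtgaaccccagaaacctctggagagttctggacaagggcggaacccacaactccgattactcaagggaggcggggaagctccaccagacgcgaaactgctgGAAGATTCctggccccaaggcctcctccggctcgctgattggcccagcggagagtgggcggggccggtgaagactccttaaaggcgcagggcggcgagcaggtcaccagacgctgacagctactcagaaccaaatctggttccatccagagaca
Hspa1b, chr17:34959189-34959488, minus strand: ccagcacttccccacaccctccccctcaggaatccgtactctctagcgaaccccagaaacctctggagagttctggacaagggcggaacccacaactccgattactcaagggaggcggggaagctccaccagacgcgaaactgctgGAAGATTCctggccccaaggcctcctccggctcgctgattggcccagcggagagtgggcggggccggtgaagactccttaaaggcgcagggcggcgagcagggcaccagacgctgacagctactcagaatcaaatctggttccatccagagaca
Hsph1, chr5:149636266-149636565, minus strand: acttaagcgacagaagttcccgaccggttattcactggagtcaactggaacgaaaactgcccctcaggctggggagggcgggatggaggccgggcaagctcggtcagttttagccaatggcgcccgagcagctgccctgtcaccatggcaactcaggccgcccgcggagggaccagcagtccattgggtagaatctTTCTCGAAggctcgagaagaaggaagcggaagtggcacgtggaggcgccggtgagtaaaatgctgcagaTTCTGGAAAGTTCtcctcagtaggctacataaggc
Hspa1a and Hspa1b each held a GAANNTTC match beginning 104 bases before the start. Their windows differed at 4 of 300 positions, C44T, T47C, T249G and C276T, counted from the 5′ end with the Hspa1a base before the Hspa1b base, and none of these lay in the capitals. Hsph1 held TTCNNGAA at 54 bases before and at 16 bases after the start, and the second match overlapped a GAANNTTC match, which on the other strand gave the 3-unit element, GAANNTTC followed by 2 bases and GAA. The second Hsph1 window, which starts 21 bases upstream of the printed one, held the same matches. Searched on both strands, GAANNTTC occurred in 7.86%, TTCNNGAA in 8.52% and the 3-unit form in 0.603% of all 32851 RefSeq mouse windows. Neither 2-unit form was found in the 2 Dnajb1 windows. A match describes letters in a window and is not evidence of binding.

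In the windows of ER genes, capitals mark the ER stress element (CCAAT, then 9 bases of any kind, then CCACG), its shorter form ER stress element II (ATTGG, then 1 base of any kind, then CCACG) and the C/EBP-ATF element TTGCATCA.
Hspa5, chr2:34771840-34772139, plus strand: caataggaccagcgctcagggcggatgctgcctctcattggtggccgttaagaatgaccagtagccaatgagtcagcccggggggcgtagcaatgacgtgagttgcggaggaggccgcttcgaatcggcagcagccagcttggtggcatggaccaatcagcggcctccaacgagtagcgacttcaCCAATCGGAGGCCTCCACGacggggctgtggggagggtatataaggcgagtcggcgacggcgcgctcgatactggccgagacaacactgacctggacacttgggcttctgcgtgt
Hsp90b1, chr10:86705395-86705694, minus strand: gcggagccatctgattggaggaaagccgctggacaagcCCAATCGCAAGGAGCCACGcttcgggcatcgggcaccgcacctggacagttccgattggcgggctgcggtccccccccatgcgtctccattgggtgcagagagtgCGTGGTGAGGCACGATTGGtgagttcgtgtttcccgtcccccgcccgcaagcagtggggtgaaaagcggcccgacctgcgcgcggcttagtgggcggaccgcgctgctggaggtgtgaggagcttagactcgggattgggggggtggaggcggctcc
Herpud1, chr8:94386179-94386478, plus strand: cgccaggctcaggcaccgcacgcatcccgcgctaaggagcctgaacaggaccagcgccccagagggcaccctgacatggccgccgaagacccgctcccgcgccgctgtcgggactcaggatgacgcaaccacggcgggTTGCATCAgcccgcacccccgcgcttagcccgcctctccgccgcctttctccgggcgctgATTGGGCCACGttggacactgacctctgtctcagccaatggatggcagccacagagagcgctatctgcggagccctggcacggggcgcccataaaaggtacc
Hspa5 held the ER stress element 65 bases before its start. Hsp90b1 held it at 212 bases before the start and, on the opposite strand, at 107 bases before it. Herpud1 held ER stress element II at 52 bases and the C/EBP-ATF element at 112 bases before its start. These letters were rarer than the 2-unit heat shock element, at 39 of 32851 windows (0.119%) for the ER stress element, 12 (0.0365%) for ER stress element II and 294 (0.895%) for the C/EBP-ATF element. The CCAAT letters, which overlap both ER stress elements on one strand or the other, were by themselves in 37.4% of windows. No match to these 3 ER elements was found in the Ddit3 window, and no 2-unit heat shock element in any window of the 4 ER genes.

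The libraries held 17550170 to 30614583 counts, and TMM factors from 0.807 to 1.158. Levels are given as CPM, in which the counts of a library are scaled to a common total of the tested genes with TMM, and tests are quasi-likelihood F-tests in edgeR with Benjamini-Hochberg adjustment over all tested genes, called at an adjusted p under 0.05. All 10 macrophage markers examined were detected, and their sum was 19038 to 20946 CPM of the total count in the E14.5 libraries, 23646 to 25041 in P3, 21595.5 to 25330 in P10, 30034 to 32064 in P21 and 30755.5 to 35169 in P56. All 6 fibroblast markers were also detected, with sums of 60.5 to 695 CPM in E14.5, 530.4 to 2446 in P3, 653 to 2706 in P10, 983 to 1838 in P21 and 82.1 to 137 in P56. All 5 mast cell markers had sums of 1.87 to 119 CPM in E14.5, 626 to 1736 in P3, 172 to 429 in P10, 3.95 to 10.8 in P21 and 10.2 to 281 in P56. All 4 osteoclast markers had sums of 117 to 525.1 CPM in E14.5, 822 to 1310 in P3, 813 to 1694 in P10, 186 to 245 in P21 and 78.8 to 393 in P56. All 5 erythroid markers had sums of 93.6 to 102 CPM in E14.5, 95.1 to 235 in P3, 7.12 to 111 in P10, 1.33 to 3.44 in P21 and 2.44 to 6.55 in P56. Mast cell, osteoclast and erythroid sums were thus lower in all P21 libraries than in all P3 and P10 libraries, the comparisons in which members rose. The 4 T and NK cell markers summed to at most 6.45 CPM in any library, with Cd3e and Cd3d at 0 counts and Nkg7 at up to 5 counts at P10 and 39 at P21. The part of other cells in the results below was not tested.

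Measured per kilobase of exon, Hspa5 was the most abundant member, with a mean of 592 CPM per kb over the 15 libraries, followed by Hsp90b1 at 224, Herpud1 at 145, Hspa8 at 132 and Dnajb1 at 90.9. The other members lay lower, with Ddit3 at 27.9, Hspa1a at 22.9, Hsp90aa1 at 19.4, Hspa1b at 16.3 and Hsph1 at 6.13 CPM per kb. Hspa1b and Hspa1a spanned 20.9-fold and 12.7-fold between the ages of lowest and highest mean CPM, P10 and P56, where P56 also differs in sequencing project. At P21 their means were 61.4 and 96.2 CPM, against 6.07 and 14.04 at P10. Herpud1 spanned 3.61-fold and Dnajb1 3.19-fold between P3 and P21, and Hsp90b1 1.25-fold between P3 and E14.5.

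**Figure D1:**
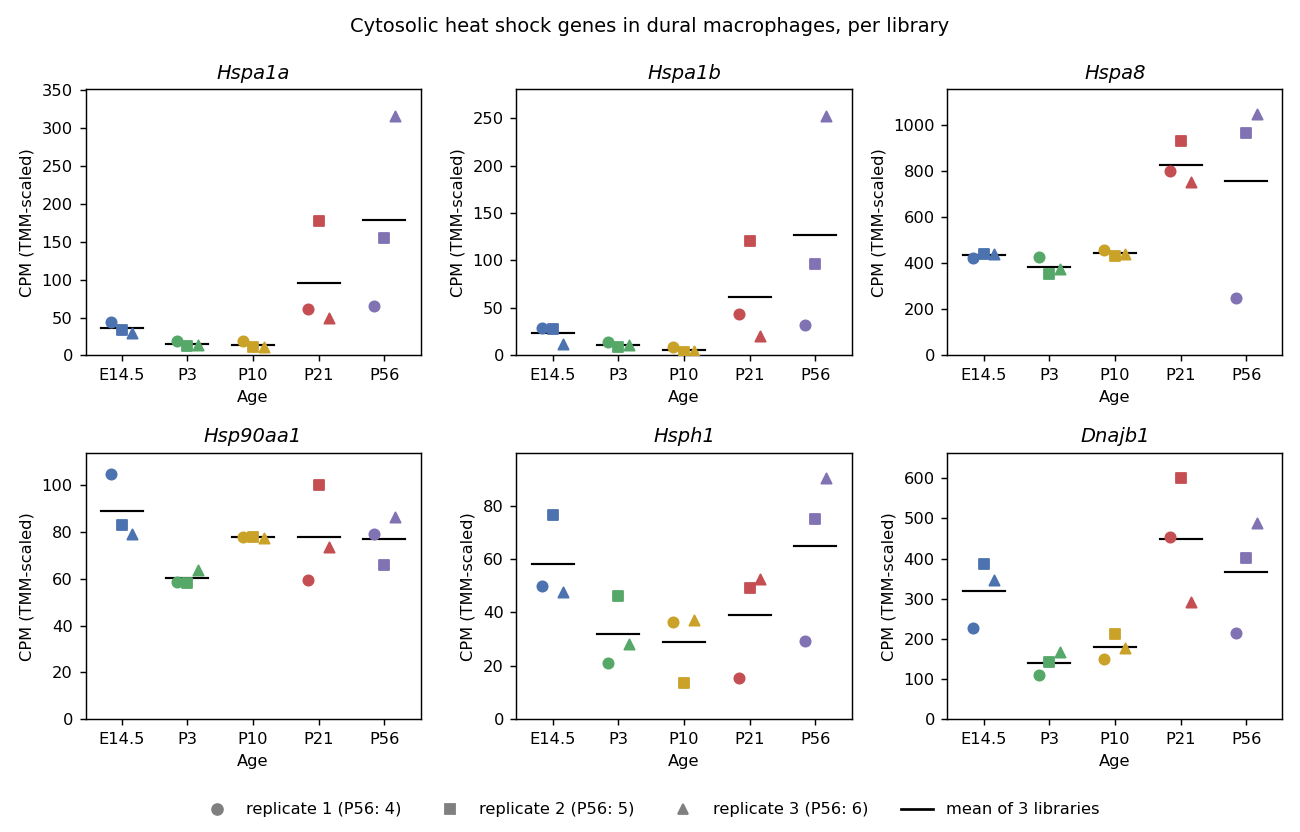
Level of each cytosolic heat shock gene in CPM (TMM-scaled, linear axis from 0) in every library at 5 ages; points are libraries, their shape gives the replicate number, and bars are means of 3 libraries. Hspa1a and Hspa1b sit low at P3 and P10 and spread widely at P21 and P56, Hspa8 sits higher at P21 than at the 3 younger ages, and Hsp90aa1 stays between 58.3 and 105 CPM.

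Hspa1a and Hspa1b encode the stress-inducible HSP70 proteins, which bind exposed hydrophobic stretches of unfolded protein. Hspa1a had 44.1, 33.8 and 29.4 CPM at E14.5, 18.8, 12.3 and 14.1 at P3, 18.6, 11.8 and 11.8 at P10, 61.2, 178 and 49.8 at P21, and 64.6, 155 and 316 at P56. All P21 libraries were above all libraries of E14.5, P3 and P10, and they overlapped with P56. By total count alone, E14.5 replicate 1 (49.5 CPM) lay above P21 replicate 3 (46.9 CPM). Hspa1a rose at P21, with 96.2 ± 70.7 CPM against 14.04 ± 3.96 at P10 (SD, n = 3 each; edgeR log2 change 2.77 ± 0.55 SE, adjusted p = 0.0317) and against 15.1 ± 3.37 at P3 (2.67 ± 0.55, adjusted p = 0.0148). Against 35.8 ± 7.56 at E14.5 the P21 level did not pass the test (1.43 ± 0.52, edgeR adjusted p = 0.0974). The call against P3 was lost without P21 replicate 2 (1.88, adjusted p = 0.0609) and without any 1 of the 3 P3 libraries (2.54 to 2.86, adjusted p = 0.0505 to 0.0786). Both calls were also lost with no low-count filter (edgeR adjusted p = 0.0982 against P10 and 0.0714 against P3) and with limma voom (0.131 and 0.0908), and the one against P10 in a fit of only those 2 ages (0.0846).

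Hspa1b had 29.0, 27.9 and 12.5 CPM at E14.5, 14.54, 8.37 and 10.8 at P3, 9.09, 4.04 and 5.09 at P10, 43.4, 120.0 and 20.8 at P21, and 32.5, 95.8 and 252 at P56. It rose at P21 against P10, where the libraries did not overlap (3.33 ± 0.74, edgeR adjusted p = 0.0486), and it did not pass against P3 (2.45 ± 0.71, adjusted p = 0.0852) or E14.5 (1.41 ± 0.69, adjusted p = 0.214). The library of highest level at P21 was replicate 2 for both genes. Without it, the change against P10 was 1.98 for Hspa1a (edgeR adjusted p = 0.0917) and 2.39 for Hspa1b (adjusted p = 0.159), and neither passed. Both calls against P10 were also lost when any 1 of the 3 P10 libraries was left out, with edgeR adjusted p of 0.0950 to 0.205 and changes of 2.66 to 3.75. That of Hspa1b was lost without P21 replicate 1 as well (3.53, adjusted p = 0.0662). With all libraries, it was lost with upper quartile scaling (edgeR adjusted p = 0.0528), with no low-count filter (0.161), in a fit of only those 2 ages (0.106) and with limma voom (0.276).

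Hspa1a and Hspa1b are near-identical, and 58.8% of the 50-base stretches of the Hspa1a transcript in GENCODE M21 also occur in Hspa1b, so the split of reads between them is uncertain. Hspa1b took 25.6% to 45.2% of the counts of the pair in the 15 libraries. Summed as 1 feature, the pair had 105, 298 and 70.5 CPM at P21, against 27.7, 15.8 and 16.8 at P10 and 33.4, 20.7 and 24.9 at P3. The sum rose at P21 against P10 (2.97 ± 0.61, edgeR adjusted p = 0.0335) and against P3 (2.58 ± 0.60, adjusted p = 0.0288), which does not depend on how reads were divided between the pair.

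Hspa8 encodes HSC70, the constitutive member of the same family, which also works in chaperone-mediated autophagy and clathrin uncoating. It had 420.1, 441 and 441 CPM at E14.5, 427, 353 and 375 at P3, 455, 432 and 441 at P10, and 801, 929 and 752 at P21. All 3 P21 libraries were above the 9 younger ones, whose range was 353 to 455 CPM. The P56 libraries, with 249.5, 964 and 1048 CPM, held both the lowest and the highest level of all 15. By total count alone the highest was P21 replicate 2 (848 CPM, against 845 in P56 replicate 6). In the fit of 15 libraries, whose spread includes P56, the difference at P21 did not pass against P10 (0.90 ± 0.34, edgeR adjusted p = 0.250), P3 (1.10 ± 0.35, adjusted p = 0.113) or E14.5 (0.93 ± 0.34, adjusted p = 0.0997). In a fit of the 12 libraries of project S232 it passed against all 3, with 0.90 ± 0.11 against P10 (edgeR adjusted p = 0.00157), 1.08 ± 0.11 against P3 (adjusted p = 0.000109) and 0.92 ± 0.11 against E14.5 (adjusted p = 0.000129).

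Dnajb1 encodes the J-domain protein HSP40, which delivers clients to HSP70 and stimulates its ATPase. It had 226.5, 387 and 347 CPM at E14.5, 111, 143 and 168 at P3, 151, 211 and 178 at P10, 453, 601 and 292 at P21, and 214, 401 and 488 at P56. The P3 libraries were all below those of E14.5, and the P21 libraries were all above those of P3 and P10. Dnajb1 rose at P21 against P3 (1.67 ± 0.32, edgeR adjusted p = 0.00956), and against P10 its difference of 1.32 ± 0.32 had adjusted p = 0.0663. At P3 against E14.5 the difference of -1.19 ± 0.32 had adjusted p = 0.0782. In the fit of 12 libraries both of these passed, with 1.32 ± 0.27 at P21 against P10 (edgeR adjusted p = 0.0303) and -1.17 ± 0.27 at P3 against E14.5 (adjusted p = 0.0451). The call at P21 against P3 was lost without P3 replicate 1 (1.53, adjusted p = 0.0572).

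Hsp90aa1 encodes the inducible cytosolic HSP90, which matures kinases and steroid receptors, and Hsph1 encodes HSP105, a nucleotide exchange factor of HSP70. Hsp90aa1 had 105, 83.2 and 79.1 CPM at E14.5, 58.5, 58.3 and 63.8 at P3, 78.0, 77.9 and 77.4 at P10, 59.7, 100.3 and 73.6 at P21, and 79.3, 65.7 and 86.6 at P56. Hsph1 had 49.7, 76.4 and 47.8 CPM at E14.5, 21.2, 46.2 and 28.1 at P3, 36.3, 13.7 and 37.2 at P10, 15.4, 49.2 and 52.3 at P21, and 29.1, 74.9 and 90.2 at P56. Both genes were lower in all P3 libraries than in all E14.5 libraries, and neither passed in any comparison. The log2 change at P21 against P10 was 0.00 ± 0.19 for Hsp90aa1 and 0.42 ± 0.52 for Hsph1, with overlapping libraries for both.

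**Figure D2:**
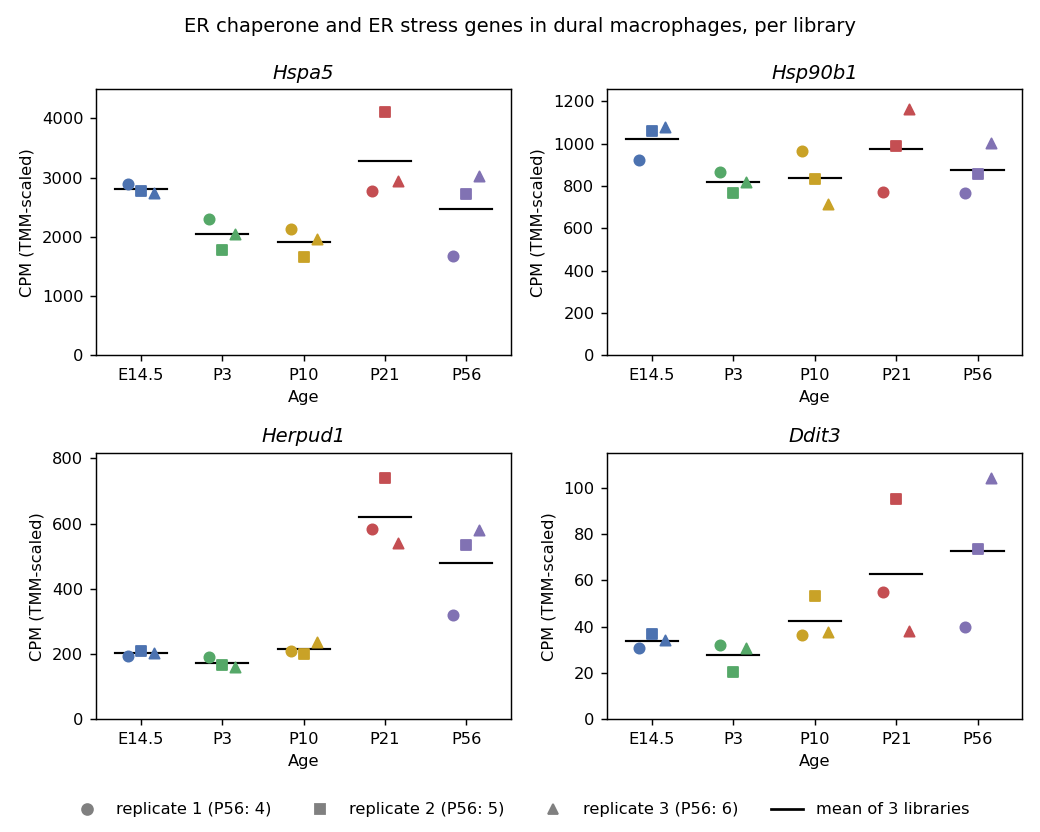
Level of each ER gene in CPM (TMM-scaled, linear axis from 0) in every library at 5 ages; points are libraries, their shape gives the replicate number, and bars are means of 3 libraries. Herpud1 sits between 161 and 236 CPM at E14.5, P3 and P10 and between 319 and 741 CPM at P21 and P56, whereas the Hsp90b1 libraries of different ages largely overlap.

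Herpud1 encodes HERP, an ER membrane protein that organises the machinery for retrotranslocating and degrading misfolded ER proteins. It had 193, 209.9 and 203 CPM at E14.5, 190.0, 167 and 161 at P3, 209, 199.9 and 236 at P10, 582, 741 and 541 at P21, and 319, 533 and 580.3 at P56. The 6 libraries of P21 and P56 were all above the 9 younger ones. Herpud1 rose at P21, with 621 ± 105 CPM against 215 ± 19.0 at P10 (SD, n = 3 each; 1.53 ± 0.19 SE, edgeR adjusted p = 0.00206), against 172 ± 15.6 at P3 (1.85 ± 0.19, adjusted p = 8.96e-05) and against 202 ± 8.73 at E14.5 (1.62 ± 0.19, adjusted p = 7.97e-05). These 3 calls were kept whichever of the libraries compared was left out, with changes of 1.39 to 1.62, 1.70 to 1.94 and 1.48 to 1.71.

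Hspa5 encodes BiP, the HSP70 of the ER lumen and the protein that holds the ER stress sensors inactive. It had 2894, 2775 and 2749 CPM at E14.5, 2299.9, 1785 and 2049 at P3, 2132, 1653 and 1967 at P10, 2782, 4112 and 2939 at P21, and 1677, 2717 and 3025 at P56. The P3 and P10 libraries were all below those of E14.5 and P21. By total count alone, P3 replicate 1 (2522 CPM) lay above P21 replicate 1 (2509 CPM). The difference at P21 was 0.77 ± 0.20 against P10 (edgeR adjusted p = 0.0853) and 0.68 ± 0.20 against P3 (adjusted p = 0.0868), and neither passed. Both passed in the fit of 12 libraries, with 0.77 ± 0.15 (edgeR adjusted p = 0.0253) and 0.66 ± 0.15 (adjusted p = 0.0287).

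Hsp90b1 encodes GRP94, the HSP90 of the ER lumen, which folds integrins and Toll-like receptors. It had 924, 1060.0 and 1077 CPM at E14.5, 867, 765 and 817 at P3, 965, 833 and 713 at P10, 773, 987 and 1162 at P21, and 767, 858 and 1004 at P56. Its P21 and P10 libraries overlapped, and the log2 change between them was 0.22 ± 0.16 (edgeR adjusted p = 0.585). Hsp90b1 passed in no comparison.

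Ddit3, which encodes the transcription factor CHOP of the PERK branch, had 30.7, 36.8 and 34.1 CPM at E14.5, 31.9, 20.4 and 30.7 at P3, 36.3, 53.3 and 37.7 at P10, 54.8, 95.1 and 38.1 at P21, and 39.7, 73.4 and 104 at P56. All P21 libraries were above all P3 libraries, and P21 replicate 3 lay among the P10 libraries. The difference at P21 against P3 was 1.18 ± 0.36 and did not pass (edgeR adjusted p = 0.108). It passed when P21 replicate 3 was left out (1.43, adjusted p = 0.0445).

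Over the 12 libraries of project S232, 6 of the 10 genes differed between ages in an edgeR F-test, against 12.3% of 14287 tested genes. They were the cytosolic genes Hspa8 (adjusted p = 8.37e-05), Hspa1a (0.0024), Dnajb1 (0.00506) and Hspa1b (0.0106), and the ER genes Herpud1 (6e-06) and Hspa5 (0.0127). Each of these passed in all 12 fits that left out 1 library. Ranked by mean level over all 5 ages, including P56 of the other project, most neighbouring ages overlapped. The exceptions were Hspa1a (E14.5 above P3, P21 above E14.5), Herpud1 (E14.5 above P3, P56 above P10), Dnajb1 (E14.5 above P10) and Hsp90aa1 (P56 above P3). By total count alone, Hspa1a overlapped between P21 and E14.5. Hsp90aa1 then overlapped between P56 and P3, with means of 64.3 CPM at P56 and 66.5 at P3. The genes that did not pass the F-test were Ddit3 (adjusted p = 0.0927), Hsp90aa1 (0.236), Hsp90b1 (0.350) and Hsph1 (0.444). In bulk libraries, less RNA per cell and fewer cells of a kind that expresses a gene cannot be told apart, which holds for every difference given here.

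**Figure D3:**
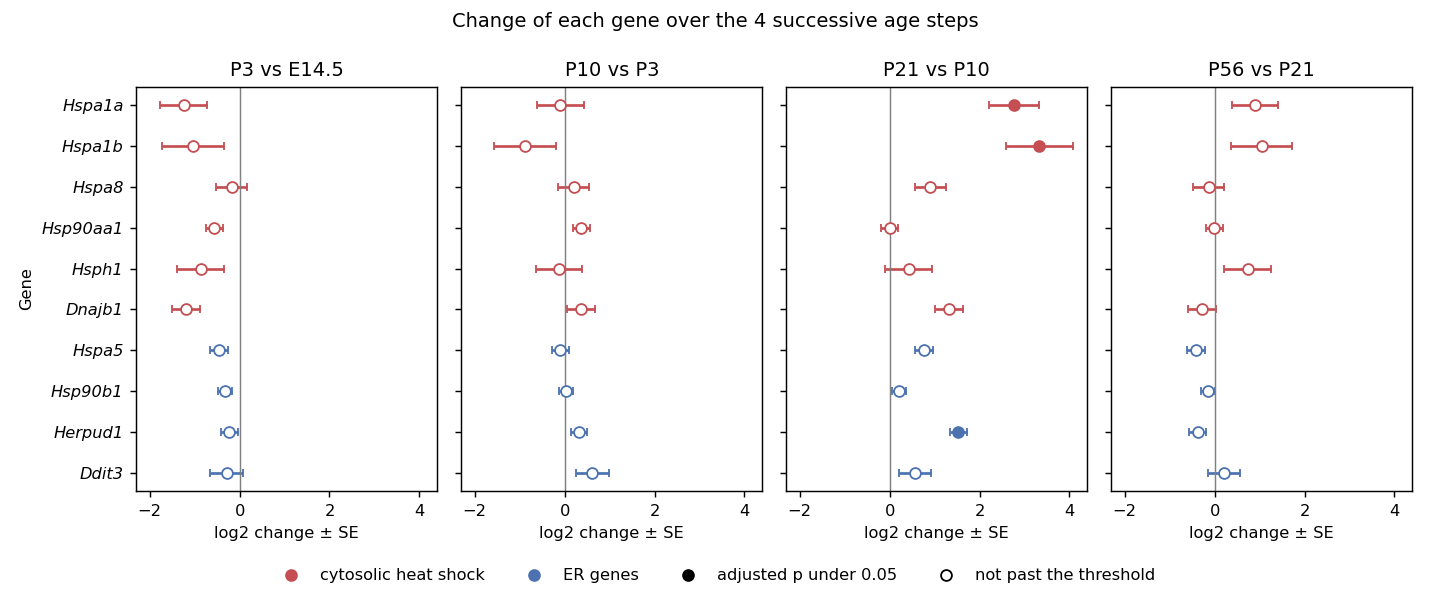
Log2 change of each gene over the 4 successive age steps, older against younger, from the edgeR fit of 15 libraries; points are estimates, bars are ± 1 SE, red marks cytosolic genes, blue marks ER genes, and filled points passed an adjusted p of 0.05. All 10 estimates lie below 0 at P3 vs E14.5, and filled points appear at P21 vs P10 for Hspa1a, Hspa1b and Herpud1.

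At P3 against E14.5, 0 of the 10 genes passed in edgeR, where 2.06% of all tested genes did. At an unadjusted p under 0.05 there were 4, Hspa1a, Hsp90aa1, Dnajb1 and Hspa5, beside 12.8% of all genes. DESeq2 called 1, Dnajb1, beside 5.62% of all genes, and limma voom called 0 beside 2.15%. All 10 estimates were below 0, with a median log2 change of -0.95 for the cytosolic and -0.31 for the ER genes and of 0.01 for all tested genes. For 7 genes every P3 library was below every E14.5 library, as it was for 13% of all genes. In the fit of 12 libraries, Dnajb1 fell, where 0.602% of all genes did.

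At P10 against P3, 0 of the 10 genes passed in edgeR (0.402% of all genes), and 0 had an unadjusted p under 0.05 (10% of all genes). DESeq2 (2.27% of all genes) and limma voom (0.64%) also called 0. The libraries did not overlap and were higher at P10 for 4 genes, Hspa8, Hsp90aa1, Herpud1 and Ddit3, as for 9.8% of all genes. With total-count scaling Hspa8 and Herpud1 overlapped. P3 replicate 1 was above P10 replicate 2, with 468 against 431 CPM for Hspa8 and 208 against 199.7 for Herpud1. The median log2 change was 0.05 for the cytosolic and 0.18 for the ER genes.

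At P21 against P10, 3 of the 10 genes rose, Hspa1a, Hspa1b and Herpud1, where 0.96% of all tested genes rose. In 6 genes every P21 library was above every P10 library, namely those 3 with Hspa8, Dnajb1 and Hspa5, as for 8.8% of all genes. These 6 genes rose in the fit of 12 libraries, where 1.71% of all genes did. The median log2 change was 1.11 for the cytosolic and 0.67 for the ER genes, against -0.01 for all tested genes. Of the 3 genes called, Herpud1 alone remained without P21 replicate 2 or without any 1 of the P10 libraries, while 2 genes were called without P21 replicate 1 and 4, with Dnajb1, without P21 replicate 3. Scaled by the total count alone, the median change of all genes was -0.18, and Hspa1a (2.59, edgeR adjusted p = 0.0413) and Herpud1 (1.36, adjusted p = 0.00519) passed while Hspa1b did not (3.14, adjusted p = 0.0579).

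Comparisons of P21 with P3 and with E14.5 share the P21 libraries with the comparison above. Against P3, 3 genes rose, Hspa1a, Dnajb1 and Herpud1, where 2.7% of all genes rose, and 7 genes did not overlap (10.6% of all genes were higher in this way). Of these 7, Hspa5 overlapped with total-count scaling. A total of 6 rose in the fit of 12 libraries, beside 3% of all genes. In the fit of 15 libraries, Herpud1 alone passed without P3 replicate 1, and 5 genes passed without P21 replicate 3. Against E14.5, Herpud1 alone rose, where 7.81% of all genes rose, and 4 genes, Hspa1a, Hspa8, Herpud1 and Ddit3, were higher without overlap, as were 16.1% of all genes. With total-count scaling Hspa1a and Ddit3 overlapped. P21 replicate 3 had 46.9 CPM of Hspa1a and 35.9 of Ddit3, against up to 49.5 and 42.5 at E14.5. Hspa1a, Hspa8 and Herpud1 rose in the fit of 12 libraries, beside 8.29% of all genes.

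At P56 against P21, 0 of the 10 genes passed in edgeR (0.272% of all genes), 0 had an unadjusted p under 0.05 (11.7% of all genes), and 0 passed in DESeq2 (3.57%) or limma voom (0.354%). The libraries overlapped for all 10 genes, whereas 13% of all genes did not overlap in either direction. With total-count scaling all P56 libraries were below all P21 libraries for Hspa5 (at most 2441 against at least 2509 CPM). The same held for Herpud1 (at most 468 against at least 511 CPM). The median log2 change was 0.36 for the cytosolic and -0.27 for the ER genes. Changes of 1.05 ± 0.68 for Hspa1b and 0.89 ± 0.52 for Hspa1a came with libraries that differed by up to 7.76-fold within P56, and the sequencing project differed between both ages.

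**Figure D4:**
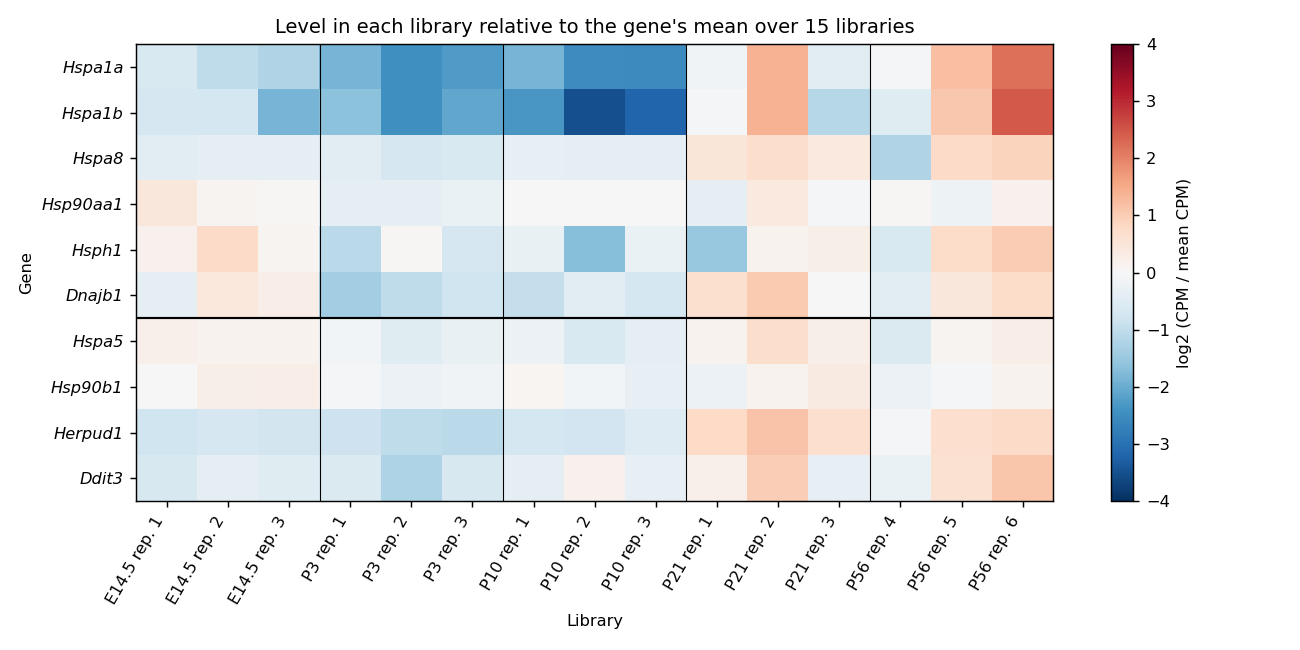
Each cell gives the log2 ratio of the CPM of a gene in a library to its mean CPM over 15 libraries, on a colour scale from -4 (blue) to 4 (red); rows are genes with cytosolic genes above the line and ER genes below it, and columns are libraries by age. P21 replicate 2 and P56 replicates 5 and 6 are red in most rows, and P3 and P10 are blue for Hspa1a and Hspa1b.

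The spread within P21 and P56 ran along whole libraries, and that within P3 did so in part. P3 replicate 1 was the highest of its age for 3 of 6 cytosolic and 4 of 4 ER genes, and P3 replicate 2 the lowest for 4 and 3. P21 replicate 2 was the highest of its age for 5 of 6 cytosolic and 3 of 4 ER genes. P56 replicate 6 was the highest of its age for all 6 cytosolic and all 4 ER genes, and P56 replicate 4 was the lowest for 5 cytosolic and 4 ER genes. The highest P56 library exceeded the lowest by 7.76-fold for Hspa1b, 4.89-fold for Hspa1a, 4.20-fold for Hspa8 and 1.31-fold for Hsp90b1. At E14.5 the same ratio was 2.31 for Hspa1b, 1.4996 for Hspa1a, 1.05 for Hspa8 and 1.17 for Hsp90b1. The P21 and P56 libraries also differed in other measures. Mitochondrial genes took 1.03% of counts in P56 replicate 4 against 0.493% and 0.426% in replicates 5 and 6. The highest share of any library was 1.14%, in P3 replicate 3. P21 replicate 2 had 11254 genes with at least 10 counts, against 12236 and 13058 in replicates 1 and 3. The part of these measures in the spread was not tested.

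Immediate early genes that respond to tissue dissociation were examined beside the heat shock genes, as 28 genes of which 27 were tested. At P21 against P3, 21 of 27 rose and 0 fell, with a median log2 change of 1.15, where 2.7% of all genes rose and 0.94% fell. Scaled by the total count alone, 17 rose and 0 fell (median 0.88). Of the calls over all genes under that scaling, 33.9% were higher, and the median log2 change of all genes was -0.28. At P21 against P10, 7 rose and 0 fell (median 0.49), where 0.96% of all genes rose and 0.184% fell. At P10 against P3, 7 rose and 0 fell (median 0.77), beside 0.341% and 0.0613% of all genes. At P3 against E14.5, 3 rose and 5 fell, beside 1.67% and 0.388% of all genes, and those that fell included Egr1 (-2.02 ± 0.17, edgeR adjusted p = 2.5e-05) and Dusp1 (-0.74 ± 0.10, adjusted p = 0.00107). Btg2, an antiproliferative early response gene, rose at P10 with 2204 ± 331 CPM against 597 ± 114 at P3 (1.88 ± 0.19, edgeR adjusted p = 0.000393). The sum of the immediate early genes was 24421 to 26349 CPM of the total count in the E14.5 libraries and 16341 to 18924 in P3. It was 26521 to 31498 in P10, 30556 to 33506 in P21 and 26815 to 34418 in P56. P21 replicate 2, the highest P21 library for Hspa1a, had the lowest of these sums at P21. At P56, replicate 4, the lowest for 5 of 6 cytosolic and all 4 ER genes, had the lowest sum, 26815 CPM. P56 replicate 6, the highest for all members, had 29869.5 CPM, between the other P56 libraries. What sorting or dissociation contributed to the members was not tested.

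**Figure D5:**
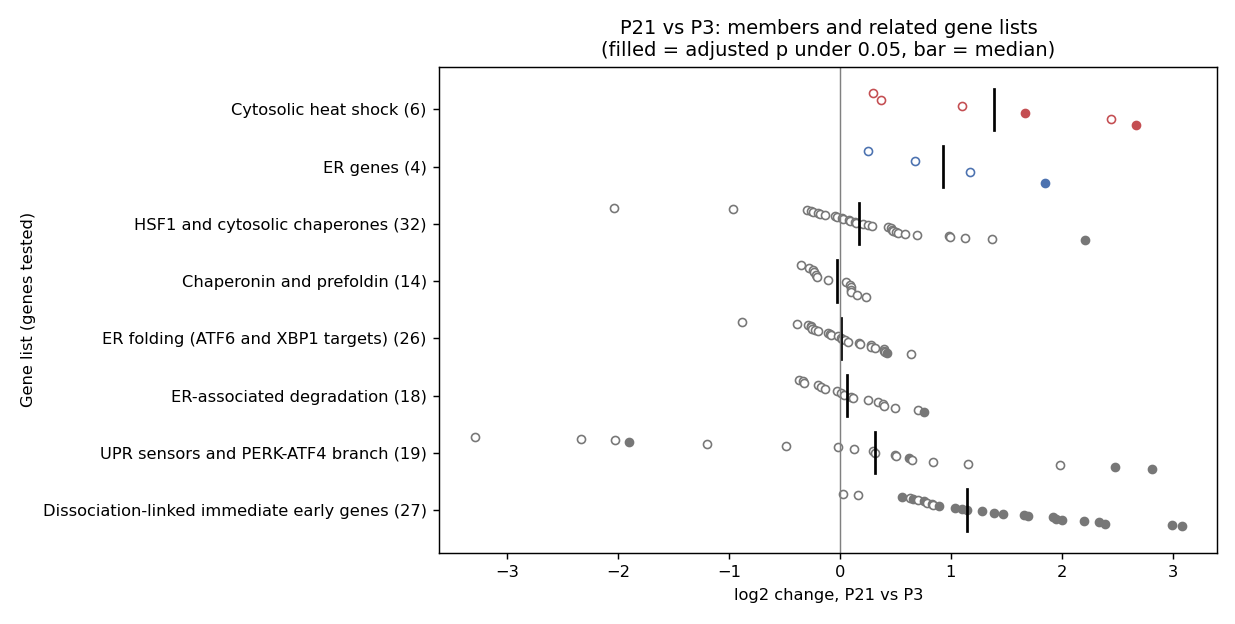
Log2 change at P21 vs P3 of each tested gene in the cytosolic and ER groups and in 6 related lists; each point is a gene, filled points passed an adjusted p of 0.05, bars are medians, and the number of genes tested is in parentheses. Medians are 1.39 for the cytosolic genes, 0.93 for the ER genes and 1.15 for the immediate early genes, and lie between -0.03 and 0.32 for the other 5 lists. Scaled by the total count alone these 5 lie between -0.30 and 0.05, below 0 for all but the unfolded protein response list.

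Of 32 other chaperones and cofactors of the HSF1 response, 1 rose and 0 fell at P21 against P3 in edgeR, where 2.7% of all genes rose and 0.94% fell, a share close to that of the list. The median log2 change was 0.18 and turned to -0.09 with total-count scaling. DESeq2 called 4 higher, beside 4.78% of all genes, and limma voom 3, beside 3.05%. The gene was Dnajb4, a J-domain cochaperone, with 84.7 ± 20.1 CPM at P21 and 18.4 ± 8.63 at P3 (2.21 ± 0.42, edgeR adjusted p = 0.0088). Against P10, 0 passed in edgeR, DESeq2 or limma voom, beside 1.14%, 5.09% and 1.78% of all genes. In edgeR 8 had an unadjusted p under 0.05, beside 14.6% of all genes. At P21 against E14.5, 6 rose and 4 fell, beside 7.81% and 4.37% of all genes. With total-count scaling 3 rose and 5 fell, beside 747 and 1493 of 14683 tested genes. Dnajb2, another J-domain gene, rose (2.20 ± 0.39, edgeR adjusted p = 0.00168), while Hspa4, an HSP70 exchange factor (-0.90 ± 0.18, adjusted p = 0.00383), and the mitochondrial chaperones Hspa9 (-0.88 ± 0.20, adjusted p = 0.00919) and Hspd1 (-1.05 ± 0.24, adjusted p = 0.0101) fell. Hsp90ab1, the constitutive partner of Hsp90aa1, had 1338 ± 99.5 CPM at P21 and 1081 ± 131 at P10 and did not pass (0.31 ± 0.16, adjusted p = 0.413).

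Of the 14 genes of the chaperonin TRiC and its partner prefoldin, which fold actin and tubulin, 2 fell and 0 rose at P3 against E14.5, beside 0.388% and 1.67% of all genes (0 fell with upper quartile scaling). At P21 against E14.5, 6 fell and 1 rose, beside 4.37% and 7.81% of all genes. With total-count scaling 7 fell and 0 rose, beside 1493 and 747 of 14683 tested genes. With upper quartile scaling 4 fell and 1 rose, beside 569 and 1252. Cct8 fell at both, with log2 changes of -0.56 ± 0.13 (edgeR adjusted p = 0.0410) and -0.77 ± 0.13 (adjusted p = 0.00132), with means of 527 ± 49.8 CPM at E14.5, 358 ± 33.4 at P3 and 309 ± 19.2 at P21. At P21 against P10, 0 of the 14 passed in edgeR and 4 had an unadjusted p under 0.05, beside 1.14% and 14.6% of all genes. DESeq2 called 1 and limma voom 0, beside 5.09% and 1.78%, and the median was -0.33. At P21 against P3, 0 passed in edgeR, DESeq2 or limma voom, beside 3.64%, 7.83% and 4.7% of all genes. There, 0 had an unadjusted p under 0.05 in edgeR, beside 16.6%, and the median was -0.03.

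Among 26 further ER folding genes, which are targets of ATF6 and XBP1, 0 passed at P21 against P10 in edgeR, beside 1.14% of all genes. There, 5 had an unadjusted p under 0.05, beside 14.6%, and DESeq2 called 1 and limma voom 0, beside 5.09% and 1.78%. At P21 against P3, 1 rose in edgeR, beside 2.7% of all genes. The gene was Pdia3, a disulfide isomerase of glycoproteins, with 1622 ± 182 CPM at P21 and 1206 ± 79.3 at P3 (0.43 ± 0.10, edgeR adjusted p = 0.026). Pdia3 and Fkbp2, an ER prolyl isomerase (0.76 ± 0.16, edgeR adjusted p = 0.00569), rose at P21 against E14.5, beside 7.81% of all genes. Neither gene passed when scaled by the total count. In that scaling 7 of the 26 fell against E14.5, beside 1493 of 14683 tested genes. Of 18 genes of ER-associated degradation, the process that HERP serves, 1 rose at P21 against P3, Selenok (0.76 ± 0.16, edgeR adjusted p = 0.0192; 0.49 and 0.0960 with total-count scaling, where Edem1 fell instead), beside 2.7% of all genes. Against P10, 0 passed in edgeR, DESeq2 or limma voom, beside 1.14%, 5.09% and 1.78% of all genes. In edgeR 1 had an unadjusted p under 0.05, beside 14.6% of all genes. At P21 against E14.5, Selenok (1.08 ± 0.17, edgeR adjusted p = 0.000628) and Selenos (0.87 ± 0.22, adjusted p = 0.0161; 0.55 and 0.0934 with total-count scaling) rose and Edem1 (-0.91 ± 0.15, adjusted p = 0.000973) and Sel1l (-0.93 ± 0.23, adjusted p = 0.0164) fell, beside 7.81% and 4.37% of all genes. With total-count scaling 1 of the 18 rose and 3 fell against E14.5, beside 747 and 1493 of 14683 tested genes.

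The sensors of the unfolded protein response and the PERK-ATF4 branch, to which Ddit3 belongs, held 20 genes of which 19 were tested. At P21 against P3, 3 rose and 1 fell, beside 2.7% and 0.94% of all genes. Atf3, a stress-induced factor that is also an immediate early gene, had 1963 ± 386 CPM at P21 and 279.8 ± 51.8 at P3 (2.81 ± 0.28, edgeR adjusted p = 5.55e-05). Cebpb, the C/EBP factor that pairs with CHOP, had 1466 ± 385 CPM at P21 and 262 ± 51.4 at P3 (2.48 ± 0.30, adjusted p = 0.000283), and Atf4 had 257 ± 21.4 and 167 ± 19.9 (0.62 ± 0.16, adjusted p = 0.0447; 0.35 and 0.184 with total-count scaling). Eif2ak3, which encodes PERK itself, fell to 7.27 ± 3.64 CPM at P21, against 27.1 ± 9.71 at P3 (-1.90 ± 0.48, edgeR adjusted p = 0.0419). Against E14.5, 4 rose and 3 fell at P21, beside 7.81% and 4.37% of all genes. With total-count scaling 2 rose and 3 fell, beside 747 and 1493 of 14683 tested genes. Psat1, a serine synthesis enzyme under ATF4, fell against E14.5 (-2.64 ± 0.59, edgeR adjusted p = 0.00959). Xbp1, the target of IRE1, rose at P21 against E14.5 (0.38 ± 0.10, edgeR adjusted p = 0.0296; 0.07 and 0.743 with total-count scaling) and did not pass against P10 (0.38 ± 0.10, adjusted p = 0.106). Against P10, 0 of the 19 passed in edgeR and 8 had an unadjusted p under 0.05, beside 1.14% and 14.6% of all genes. DESeq2 called 5 higher and 1 lower, beside 3.36% and 1.74% of all genes. With limma voom 1 was higher and 1 lower, beside 1.4% and 0.375%.

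Among 6362 other genes with a mean of at least 20 CPM, those whose log2 CPM followed the mean standardised level of the cytosolic genes most closely over the 15 libraries were Canx (Pearson r = 0.90), Hsp90ab1 (0.89), Rcsd1 (0.89), Sla (0.88) and Mafk (0.88). The ER genes were followed by Rcsd1 (r = 0.92), Chka (0.90), Abcb1b (0.90), Rabgef1 (0.89) and Ndel1 (0.86). Canx encodes the ER lectin chaperone calnexin, and Sla an adaptor that dampens receptor signalling. Rcsd1, which was in both sets, averaged 125 ± 10.4 CPM (SD, n = 3) in E14.5, 104 ± 4.29 in P3, 111 ± 1.83 in P10, 230.3 ± 56.3 in P21 and 217 ± 100.2 in P56 libraries. Within the groups themselves, r with the group mean, which includes the gene, ran from 0.55 for Hsp90aa1 to 0.93 for Hspa1a and from 0.65 for Hsp90b1 to 0.89 for Hspa5. These values describe libraries that share ages, sequencing projects and scaling, and they carry no test.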

How the data were processed

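Raw read counts per gene symbol for 15 libraries were used as the authors deposited them, with no normalization. Per the labels' protocols, sorted cells went into RNAprotect, PicoPure RNA into SMARTer Ultra Low Input v4 cDNA, and Nextera XT made the libraries. Tools named in the submitters' processing notes were featureCounts 2.0.2, STAR 2.7.8a and bcl2fastq 2.18. Genome build, annotation, strand setting and the treatment of reads that map to several genes are not given in the sources used here, so levels of near-identical genes are uncertain, and overlapping genes cannot be told apart by strand.

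All libraries entered 1 fit in edgeR 4.0.16 (R 4.3.3) with age as the only term, filterByExpr by age, TMM scaling and robust quasi-likelihood F-tests, adjusted by Benjamini-Hochberg over 14683 genes. A second fit used the 12 libraries of project S232 (14287 genes). Library pairs of an age differed by more than counting noise in all 15 pairs. The scripts were tested on simulated data. Lengths for CPM per kb are union exons of GENCODE M21. Alternatives were other scalings and filters, DESeq2 1.42.0, limma voom 3.58.1, fits of 2 ages, a replicate block and leaving out each library. Total-count scaling, the 12-library fit of pairs of ages and the sum of Hspa1a and Hspa1b were added after seeing the data.

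The members and gene lists were chosen with earlier results of these data known. The named genes are the 10 members, up to 4 called genes with the smallest p per list and comparison, and the 5 genes per group most like its members. Hsp90ab1 in its list, and Xbp1, were named after their values were seen.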

Additional observations from a re-analysis of the deposited data

How the results depend on the processing

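The 10 genes kept their 0 calls at P10 against P3 and P56 against P21 in every alternative run. Counts of the 10 genes called at P3 against E14.5 were 1 with DESeq2 (5.62% of all genes), with a filter of 5 CPM in 3 libraries (297 of all genes higher, 75 lower) and in the 12-library fit (2.59%). They were 3 in the fit of only those 2 ages (373 of all genes higher, 308 lower). In the main fit 2.06% of all genes were called. At P21 against P10 the count of 3 (1.14% of all genes) became 1 with no filter (190 of all genes higher, 52 lower) or limma voom (1.78%). It became 5 with DESeq2 (5.09%) and 6 in the 12-library fit (2.28%). At P21 against P3 the count of 3 (3.64%) became 5 with the 5 CPM filter (459 higher, 165 lower), 7 with DESeq2 (7.83%) and 6 in the 12-library fit (4.6%). The count became 4 with the replicate block of that fit (4.18%) or in the fit of both ages (259 higher, 62 lower). It was 2 with limma voom (4.7%), which lost Hspa1a. With no filter it was again 3 (359 of all genes higher, 141 lower), with Ddit3 in place of Hspa1a. At P21 against E14.5 the count of 1 (12.2%) became 3 with DESeq2 (18.9%) and in the 12-library fit (13.9%). It became 2 in the fit of both ages (854 higher, 584 lower). Leaving out a library gave 1 to 4 genes at P21 against P10 and 1 to 5 at P21 against P3. For all genes, leaving out a library gave 127 to 198 calls at P3 against E14.5 (302 with all), 21 to 41 at P10 against P3 (59), 30 to 171 at P21 against P10 (168), 37 to 100 at P56 against P21 (40), 241 to 648 at P21 against P3 (534), 1108 to 1933 at P21 against E14.5 (1789) and 1009 to 1851 over the 4 ages (1759).

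All-gene counts also moved with DESeq2, to 825, 334, 748, 524, 1149 and 2782 in the order P3 against E14.5, P10 against P3, P21 against P10, P56 against P21, P21 against P3 and P21 against E14.5, and to 3226 over the 4 ages. In fits of only 2 ages they were 681 at P3 against E14.5, 73 at P21 against P10, 3 at P56 against P21 and 321 at P21 against P3. At P10 against P3 they were 116 with no filter, 91 with the 5 CPM filter, 94 with limma voom and 109 in the 12-library fit, at P56 against P21 101 with no filter and 72 with total-count scaling, and at P21 against P10 261 with limma voom and 326 in the 12-library fit. Fewer libraries enter the fits that leave some out, and the cause of the other shifts was not tested.

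Total-count scaling moved the median of all genes to -0.32 at P21 against E14.5, -0.28 at P21 against P3, -0.18 at P21 against P10 and -0.13 at P56 against P21, and the share of calls that were higher to 33.9% at P21 against P3 (74.2% with TMM), 33.3% at P21 against E14.5 (64.1%), 47.9% at P21 against P10 (83.9%) and 15.3% at P56 against P21 (37.5%). Under it Hsp90b1 turned to -0.061 at P10 against P3 and -0.0068 at P21 against P3, Hspa5 to -0.087 at P21 against E14.5 and Hsp90aa1 to -0.16 at P21 against P10. Hsp90aa1 at P21 against P10, near 0, also turned to -0.037 with upper quartile scaling, -0.038 with limma voom, -0.020 with no filter, -0.0019 with the 5 CPM filter, -0.0081 in the fit of both ages and -0.0028 in the 12-library fit, and at P56 against P21 to 0.017 with limma voom. Leaving out a library turned the sign of some differences that passed no test. At P10 against P3 the ranges were -0.36 to 0.092 for Hspa1a, -0.18 to 0.0025 for Hspa5, -0.36 to 0.24 for Hsph1 and -0.079 to 0.12 for Hsp90b1. They were -0.22 to 0.16 for Hsp90aa1 at P21 against P10, -0.22 to 0.074 for Hsp90b1 at P21 against E14.5, and at P56 against P21 -0.17 to 0.21 for Hsp90aa1, -0.44 to 0.28 for Hspa8 and -0.14 to 0.64 for Ddit3.

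No pairing by replicate number was seen: correlations of deviations between same-numbered libraries were -0.06 to 0.06, none above 0.1. Their median was 0.015, against -0.0022 between libraries of other numbers. With 3 libraries per age these values cannot exclude pairing. With the replicate block in the 12-library fit, 5 of the 10 genes were called at P21 against P10 (6 without the block), beside 1.81% (2.28%) of all genes. At P21 against P3 there were 4 (6), beside 4.18% (4.6%). At P21 against E14.5 there were 2 (3), beside 13.2% (13.9%). At P3 against E14.5 there was 1 with the block, beside 2.14%. At P21 against P10 Hsp90aa1 was -0.012, and 258 calls over all genes were made with the block. The genes not called under it were Hspa5 against P10 and P3 (edgeR adjusted p = 0.0520 and 0.0584), Hspa1b against P3 and Hspa1a against E14.5. P56 shares no replicate numbers with the other ages, so its comparison could not have a block. Counts of at least 90 per library lay behind each level of the 10 genes, and 3 libraries behind each age.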
